A study of Mus musculus with 16 samples.

Results

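Genes whose allelic balance differed from clone to clone were described across the genome in astrocytes of 5 clones. The share of Cast reads among allele-specific reads, called percent Cast, was computed for each autosomal gene with at least 20 allele-specific reads in a clone. A value under 15% was called monoallelic for the 129 allele, a value over 85% monoallelic for the Cast allele and a value of 35 to 65% biallelic. Genes monoallelic from opposite alleles in different clones, or monoallelic in some clones and biallelic in others, were the members. They numbered 1162 of 12036 autosomal genes measured in 2 or more clones, a share of 9.65%, from 50600 genes listed in the series. Since percent Cast chose the members, their ratios are a description and carry no test.

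The study derived neural progenitor cell (NPC) clones from a female and a male embryonic stem cell line of an F1 hybrid, 129Sv x Cast/EiJ, and differentiated 5 of them into astrocytes with 10 ng/mL BMP4 and 1 ng/mL FGF2 for 48 h. Astro_129, Astro_C2 and Astro_G4 are labelled female, and Astro_mC3 and Astro_mE6 male; the clone name Astro_129 does not refer to the 129 allele. Sex and line of origin cannot be told apart in contrasts of female and male clones. Each astrocyte clone has 1 poly(A)-enriched library, so no ratio has a replicate. For comparison, 7 other NPC clones of the same cross, grown with 10 ng/mL each of EGF and FGF2, were used: NPC_F5 (female), NPC_mG2 and NPC_mG6 (male) with 1 poly(A) library each, and 4 male clones, Ch3, Ch5, Ch7 and Ch8, each sequenced in duplicate from RNA depleted of ribosomal RNA. All reads on genes came to 88165502 in Astro_129, 79888544 in Astro_C2, 80241858 in Astro_G4, 78257443 in Astro_mC3 and 93963293 in Astro_mE6, and 33.4% to 34.8% of them were allele-specific. Between 11367 and 11724 autosomal genes had enough reads in a clone, with a median percent Cast of 49.2% to 49.9%. The male clones carry a single X chromosome, and there 0.0897% (Astro_mC3) and 0.0882% (Astro_mE6) of the allele-specific reads were assigned to Cast.

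As a rule the maternal and the paternal copy of an autosomal gene are read alike. At some genes a cell uses a single copy and its daughters keep that choice, so that clones of identical genotype come to differ, whereas at imprinted genes the parent of origin sets which copy is used. Astrocytes are glial cells that clear glutamate from synapses, supply neurons with metabolites and lipids, and secrete extracellular matrix.

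The astrocyte label was held against marker lists. All 18 astrocyte markers were found, and 17 exceeded 1 CPM (counts scaled to library size by the trimmed mean of M values) in a clone or more. Their summed level was 6830 CPM in Astro_129, 6451 in Astro_C2, 7241 in Astro_G4, 10309.7 in Astro_mC3 and 12710.4 in Astro_mE6, with Sparcl1, a secreted matrix-associated glycoprotein, the most abundant by the mean over clones; the leading gene of each list below is by that mean too. In Astro_G4 the glutamate transporter Slc1a3 (1801 CPM) stood above Sparcl1 (1280.2 CPM). Gfap, the intermediate filament of astrocytes, was at 1911, 65.1, 218, 164 and 254 CPM in the same order, and the water channel Aqp4 at 63.7, 53.5, 125, 15.9 and 90.1 CPM. Other markers of the list were low. Aldh1l1 stood at 2.47 to 11.5 CPM, Gjb6 at no more than 0.898 CPM, and Gja1 at 2.57 CPM in Astro_129 against 53.6 to 132 CPM elsewhere. All 5 libraries thus expressed astrocyte markers, at levels that differed widely between markers and clones. No NPC level was set beside them. NPC markers, led by Vim, which astrocytes also express, summed to 1383 to 2569 CPM. Neuron markers summed to 808, 1367, 645, 638 and 482 CPM, nearly all of it Map2, whereas Tubb3 and Rbfox3 stood at no more than 15.9 and 0.683 CPM. Mesenchymal markers reached 263 CPM in Astro_C2, against 14.6 to 54.1 CPM elsewhere; Col1a1 led by a mean that Astro_C2 (210.1 CPM) carries, and Twist1 stood above it in Astro_129 and Astro_mE6. Oligodendrocyte markers summed to 31.1 to 99.9 CPM (led by Cnp; Mag, Mobp and Sox10 at 0), microglia markers to 5.56 to 31.1 CPM (Tmem119; Itgam at 0), endothelial markers to 19.5 to 105 CPM (Kdr; Cldn5 at 0), ES cell markers to 7.39 to 17.9 CPM (Klf4; Fgf4 at 0) and proliferation markers to 14.4 to 30.5 CPM (Cdk1, below Top2a in Astro_C2 and Astro_G4). The part of such cell mixtures in the allelic ratios was not tested. In these bulk samples, fewer cells of a type and less RNA per cell cannot be told apart.

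Among the members, 116 genes (0.964% of those measured) were monoallelic from opposite alleles, 1120 (9.31%) were monoallelic in some clones and biallelic in others, and 74 were both. The count of opposite genes was 71 without Astro_G4, 75 without Astro_129 and 77 without Astro_mE6, and the other count was 685 without Astro_G4; fewer clones give fewer chances to differ. Part of the members lay where whole chromosomes or their distal parts were unequal. Windows of 20 Mb with at least 10 genes and a median outside 40 to 60% occurred in Astro_129 and Astro_G4. In Astro_129 all of chromosome 1 had a median of 34.2%. In Astro_G4 chromosome 3 had 66.0%, chromosome 18 had 65.2%, chromosome 12 from 80 Mb on had 71.8%, and chromosome 4 from 120 Mb on had 8.64%. Total expression was shifted there too. Genes of these stretches differed from the mean of the other clones by a median log2 ratio of 0.42 on chromosome 1 and of 0.41, 0.43 and 0.64 on chromosomes 3, 18 and 12, against -0.83 on distal chromosome 4. The median over all genes was -0.02 in Astro_129 and -0.11 in Astro_G4. Among these stretches, chosen for their skew, those on chromosomes 1, 3, 18 and 12 were thus high in total level. The stretch near a single allele was low. No search for stretches by total level was made.

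Leaving out values in those windows took away 286 members, 229 of them through chromosome 4 of Astro_G4, 25 through chromosome 1 of Astro_129, 18 through chromosome 3, 8 through chromosome 18 and 6 through chromosome 12. There remained 876 of 11997 genes (7.3%), of which 103 were opposite, 836 monoallelic in some and biallelic in other clones, and 63 both. These 876 are called clone-variable in what follows. Their monoallelic values came from every clone, with 182 genes on the 129 and 211 on the Cast allele in Astro_129, 83 and 95 in Astro_C2, 131 and 135 in Astro_G4, 82 and 113 in Astro_mC3, and 95 and 142 in Astro_mE6. Astro_129 held the most, and 250 genes were monoallelic in that clone alone, against 127 in Astro_G4, 80 in Astro_mE6, 70 in Astro_C2 and 57 in Astro_mC3.

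**Figure D1:**
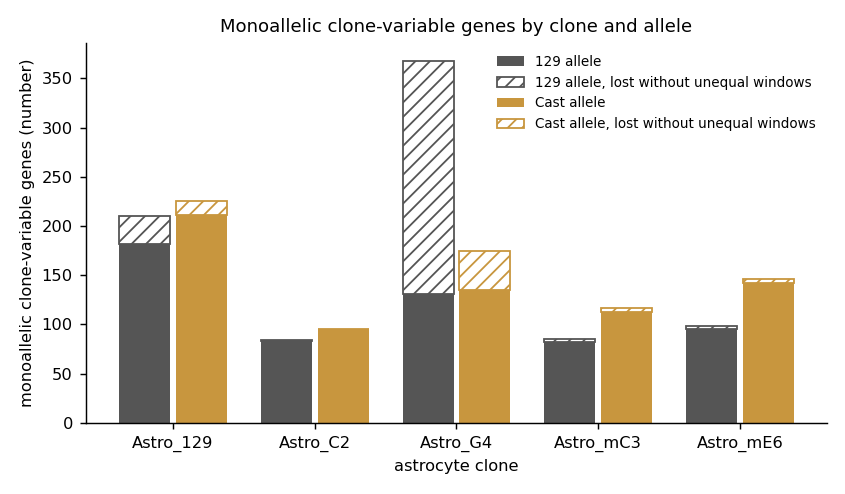
Number of members monoallelic in each astrocyte clone (bars), by the allele in use; hatched parts are lost once values in unequal 20 Mb windows are left out. In Astro_G4 the 129 bar falls from 368 to 131 genes, and Astro_C2 has the shortest bars.

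Being monoallelic was mostly a matter of a single clone. Of the 876 genes, 584 were monoallelic in 1 clone, 205 in 2, 74 in 3, 12 in 4 and 1 in 5. Only the 129 allele was used alone at 354 genes and only the Cast allele at 419. Where a gene was monoallelic in 2 clones or more, the clones used the same allele in 351 pairs and opposite alleles in 158 (31.0%). The rule shapes these counts, since a gene that used the same single allele throughout entered only with a biallelic clone beside it. Percent Cast ranged over a median of 49.99 points between clones, against 7.48 points over all genes measured, with a range over 80 points in 100 genes and under 40 points in 198. Members must differ between clones by the rule, so their wider range is no result by itself. At 552 genes a value lay under 5% or over 95%, limits chosen after seeing the data. By comparison, 8148 genes were biallelic in every clone measured and 234 were monoallelic in every one, 209 of these from a single allele.

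The values nearest to the limits show how firm a call is there. On the 129 side, Tiam2 lay just inside at 14.98% in Astro_mC3 (95% Wilson interval 12.7 to 17.6%, 801 reads), and Tor4a just outside at 15% in Astro_129 (5.24 to 36.0%, 20 reads). On the Cast side, Tmem200a lay just inside at 85.04% in Astro_mE6 (80.3 to 88.8%, 274 reads) and Cfap69 just outside at 85% in Astro_129 (73.9 to 91.9%, 60 reads). These 4 genes could fall on either side by counting error alone. The intervals cover counting error only, since reads copied during amplification are not independent molecules.

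The best covered opposite genes included enzymes of lipid metabolism. Scd2, a stearoyl-CoA desaturase that makes monounsaturated fatty acids, had 44.2% Cast in Astro_129, 99.7% in Astro_C2 (99.65 to 99.74%, 70680 reads), 45.6% in Astro_G4, 3.25% in Astro_mC3 (3.12 to 3.39%, 62874 reads) and 43.9% in Astro_mE6. The same gene was thus nearly all Cast in a clone, nearly all 129 in another and close to balance in the remaining 3. Lpl, lipoprotein lipase, was at 99.7% in Astro_C2, 1.12% in Astro_G4, 2.24% in Astro_mC3 and 29.9% in Astro_mE6, and had 15 reads in Astro_129. Cpped1, a phosphatase, was at 0.0801% in Astro_129 (0.0273 to 0.235%, 3743 reads), 100% in Astro_G4 (99.9 to 100%, 3066 reads) and 48.9%, 50.5% and 51.3% in Astro_C2, Astro_mC3 and Astro_mE6. Trim35, a protein of the tripartite motif family, showed the mirror image in the same 2 clones, at 100% in Astro_129 and 0.626% in Astro_G4, with 45.2% to 50.7% elsewhere. Both genes were monoallelic in Astro_129 and Astro_G4, and in each clone they used different alleles. Slc38a1, a glutamine transporter, was at 99.9%, 46.3%, 78.3%, 38.8% and 10.7% in the order Astro_129, Astro_C2, Astro_G4, Astro_mC3, Astro_mE6. Aatk, a kinase, was at 6.72% in Astro_129 and 91.4% in Astro_G4, and at 51.5% to 53.8% in the other clones. Svep1, an extracellular matrix protein, ran from 0.137% in Astro_129 to 91.7% in Astro_mE6, with 30.6% to 39.8% between. In Slc18b1, a vesicular polyamine transporter, only Astro_mC3 was biallelic (54.8%), with 99.6% and 98.1% in Astro_129 and Astro_G4 and 0% and 0.1401% in Astro_C2 and Astro_mE6. The 0% rests on 214 reads, which allows up to 1.76% by the Wilson interval. Anxa5, a phospholipid-binding annexin, used 129 in Astro_129 (3.52%) and Astro_mE6 (7.37%) and Cast in Astro_mC3 (97.6%). Cflar, an inhibitor of caspase-8, was at 0% in Astro_C2 and 1.91% in Astro_G4 against 85.2% and 90.9% in Astro_mC3 and Astro_mE6.

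**Figure D2:**
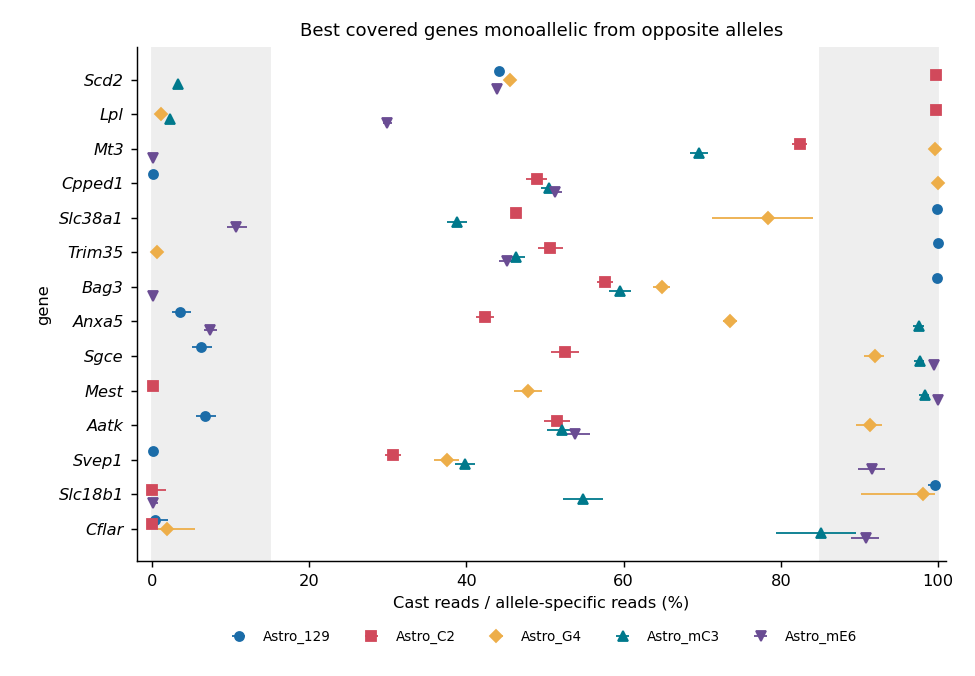
Percent Cast (horizontal axis) of the 14 best covered genes monoallelic from opposite alleles, 1 symbol per astrocyte clone with its 95% Wilson interval; grey bands mark under 15% and over 85%. Every gene has symbols in both bands, as Scd2 at 3.25% and 99.7%; Sgce and Mest belong to imprinted loci.

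The regulatory sequence beside 2 of these genes is given to show how unlike the promoters are at which either allele can be silent. RefSeq windows on GRCm38.p6, from 250 bases before the start of the gene, are written along the strand of the gene with CG dinucleotides in capitals. Bag3, a co-chaperone of Hsp70, has 21 of them at chr7:128523333-128523632 (+), and Mt3, a zinc-binding metallothionein of the brain, has 8 at chr8:94152357-94152656 (+).
Bag3: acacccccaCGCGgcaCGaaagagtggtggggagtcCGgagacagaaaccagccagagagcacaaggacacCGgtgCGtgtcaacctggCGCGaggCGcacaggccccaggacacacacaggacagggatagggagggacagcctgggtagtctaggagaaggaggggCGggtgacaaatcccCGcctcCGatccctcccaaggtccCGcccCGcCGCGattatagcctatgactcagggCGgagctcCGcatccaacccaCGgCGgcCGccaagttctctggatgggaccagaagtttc
Mt3: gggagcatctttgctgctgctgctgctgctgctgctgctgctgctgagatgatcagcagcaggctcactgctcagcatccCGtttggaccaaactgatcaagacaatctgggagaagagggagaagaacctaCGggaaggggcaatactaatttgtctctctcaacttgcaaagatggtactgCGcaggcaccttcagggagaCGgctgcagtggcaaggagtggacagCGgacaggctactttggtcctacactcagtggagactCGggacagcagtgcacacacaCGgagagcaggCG
Percent Cast of Bag3 was 99.9% in Astro_129 and 0.135% in Astro_mE6, with 57.6%, 64.9% and 59.6% in Astro_C2, Astro_G4 and Astro_mC3. Mt3 was at 99.7% in Astro_G4 and 0.0880% in Astro_mE6, and at 82.4% and 69.6% in Astro_C2 and Astro_mC3, with 9 reads in Astro_129. So 1 CpG-rich and 1 CpG-poor promoter both stood before genes read from either allele. A promoter was found for 651 of the 876 clone-variable genes; with fewer than 4 in 5 matched, a comparison of CpG content with other genes is void and is not given.

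In the larger class, monoallelic in some clones and biallelic in others, the deepest gene was Ncan, the chondroitin sulfate proteoglycan neurocan of brain matrix. It was at 0.187% Cast in Astro_129 (85913 reads) and at 43.6%, 23.3%, 43.4% and 40.2% in the other clones. Adamtsl3, a matrix glycoprotein, had 0.257% in Astro_129 and 31.6% to 52.7% elsewhere, and Cd44, the hyaluronan receptor, 1.52% against 46.4% to 58.0%. These 3 genes thus used 129 alone in the same clone, which also held the most monoallelic values. Cd44 is not on the matrix list counted below, and Col1a1 of that list used Cast in Astro_129. No count of that list by clone and allele was made. Insig1, which holds back sterol synthesis, was at 0.2402% in Astro_C2 (0.194 to 0.298%, 34560 reads) and between 47.9% and 50.3% in the other 4. Ldha, lactate dehydrogenase A, was at 99.96% in Astro_129 and 99.04% in Astro_mC3 and between 46.3% and 49.9% in the rest; Ldha has near-identical pseudogene copies, so its counts are less certain. Scrn1 was at 2.80% in Astro_129 and 43.4% to 49.05% elsewhere. Diras2, a small GTPase, was at 98.4% in Astro_G4 and 97.7% in Astro_mE6, and Nsg2, a neuronal endosomal protein, at 97.7% and 98.2% in the same clones. Chl1, a cell adhesion molecule, was over 85% in Astro_mC3 (92.0%) and Astro_mE6 (97.3%), and the calcium channel subunit Cacna2d1 in Astro_mC3 alone (93.7%). Hspb8, a small heat shock protein, was at 93.3% in Astro_G4 and 86.9% in Astro_mC3. In these 5 genes the allele used alone was Cast.

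**Figure D3:**
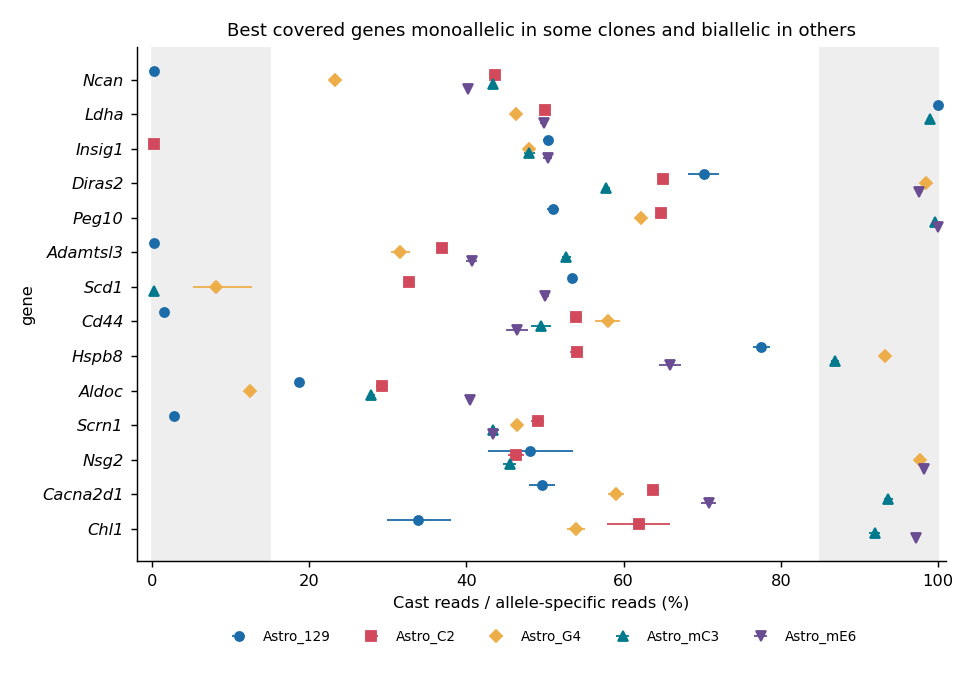
Percent Cast (horizontal axis) of the 14 best covered genes monoallelic in some clones and biallelic in others, drawn as in the plot of opposite genes. Insig1, Cd44 and Scrn1 have 4 clones near the middle and 1 in a grey band, whereas Aldoc, Hspb8 and Diras2 have a single clone at 35 to 65%.

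Lists of genes by role were counted beside the share over all genes, 7.3%, as a description. Extracellular matrix genes had 20 clone-variable members of 103 measured (19.4%), transmitter receptors 11 of 56 (19.6%), homeobox and developmental transcription factors 23 of 153 (15.03%), Zfp zinc finger genes 46 of 323 (14.2%), adhesion and guidance genes 14 of 107 (13.1%) and ion channels 11 of 87 (12.6%). MHC class I and antigen processing genes had 4 of 17 (23.5%). Of these 4, H2-DMb1 stood at no more than 0.785 CPM and Psmb8 at no more than 1.14 CPM in the clones called. Psmb8 is also the proteasome gene counted below. Nearer to the share over all genes were solute carriers with 20 of 196 (10.2%), growth factor and morphogen genes with 10 of 102 (9.8%), glutathione and cytochrome P450 enzymes with 6 of 58 (10.3%) and interferon-stimulated genes with 3 of 31 (9.68%). At the low end were ribosomal protein genes with 1 of 75, proteasome genes with 1 of 35 and respiratory complex I genes with 0 of 38. These lists by role thus ran from no member for complex I to the largest share for antigen processing, on few genes; they also differ in expression level, which was not matched. Cell type markers gave 3 of 18 for astrocytes, 1 of 5 for neurons (Snap25), 1 of 7 for mesenchyme (Col1a1) and 0 for the NPC, oligodendrocyte, microglia, endothelial, ES cell and proliferation lists, of 9, 4, 2, 3, 3 and 7 measured.

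Among receptors, Gria4, an AMPA receptor subunit, was at 96.4% in Astro_129 and 92.0% in Astro_G4. It was biallelic in the other 3 clones, Astro_C2 and the male clones (49.6% and 50.04% in the male clones). Grin3a, an NMDA receptor subunit, was at 99.5% in Astro_129 and 31.3% to 50.1% elsewhere. Of the astrocyte markers, Gja1, the gap junction protein connexin 43, was at 0.262% in Astro_C2 and 39.0% to 51.4% in the others. Clu, a secreted chaperone, was at 95.3% in Astro_129, and Aldoc, the brain aldolase, ran from 12.5% in Astro_G4 to 40.4% in Astro_mE6. A marker of the cell type could thus be silent on 1 allele in 1 clone. Of the solute carriers, Slc7a2, a transporter of basic amino acids, was at 99.7% in Astro_129 and 33.7% to 60.7% elsewhere, and Slc25a13, the mitochondrial aspartate-glutamate carrier, at 99.5% in Astro_129 and 95.8% in Astro_G4. Among matrix and growth factor genes, Mmp14, a membrane-bound metalloproteinase, used 129 in Astro_129 (1.99%) and Astro_mE6 (0.369%), Adamts1 used Cast in Astro_C2 (95.1%), and Tgfbr2, a TGF-beta receptor, used 129 in Astro_129 (0.984%). Of the developmental factors, En2 was under 15% in the female clones (6.18%, 2.89% and 10.7%) and biallelic in the male ones (45.5% and 46.3%), Hoxd8 was at 1.34% in Astro_mE6 and 44.0% to 55.3% elsewhere, and Hoxa10 was at 9.20% in Astro_G4. The zinc finger genes Zfp945 and Zfp507 were at 0.0660% in Astro_129 and 0.0664% in Astro_C2, each with 4 biallelic clones. Tap1, a peptide transporter of antigen presentation, was at 96.8% in Astro_129. Rps20 was the ribosomal gene counted, at 0.149% in Astro_129; its pseudogene copies make the value uncertain.

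Of the 13 genes that the study followed, 12 were measured in 2 clones or more and 7 were clone-variable (58.3%, against 7.3% of all genes); the study took most of them from genes already known to vary in NPC clones, so this is no independent evidence. Acyp2 and Cnrip1, both on chromosome 11, had enough reads only in the male clones, at 3.82% and 5.48% in Astro_mC3 and 100% and 99.8% in Astro_mE6. A2m, a protease inhibitor, was at 8.87% in Astro_G4 and 89.5% and 85.7% in the male clones, and Grik2, a kainate receptor subunit, at 4.97% in Astro_G4 and 92.98% in Astro_mE6. The transcriptional coactivator Eya4 was at 0.399%, 42.5%, 13.9%, 97.2% and 53.1%, which covers all 3 states, whereas App was between 47.3% and 62.0% in every clone. Eya1 was over 85% in Astro_C2 and Astro_G4 (91.25% and 91.3%), at 82.3% in Astro_mE6 and at 50.4% in Astro_mC3. Its value in Astro_G4 rests on 23 reads, with a Wilson interval of 73.2 to 97.6% that reaches below 85%. Eya2 was under 15% in the 4 clones measured, on 26 to 38 reads with Wilson intervals that all reach beyond 15%. Eya3 left the biallelic range only on the unequal chromosome 4 of Astro_G4 (9.48%). Ptk2b was at 64.3% and 71.4% in the male clones and had too few reads in the others. Imprinted genes had 12 clone-variable members of 31 measured (38.7%, against 7.3% of all genes). Peg3 was at 47.3%, 51.2% and 49.3% in the female clones and 99.9% in both male clones, and Peg10 at 51.1%, 64.8% and 62.2% against 99.6% and 99.96%. Sgce was at 6.21% in Astro_129 and 91.9%, 97.7% and 99.5% in Astro_G4, Astro_mC3 and Astro_mE6, Mest at 0.0812% in Astro_C2 and 98.4% and 100% in the male clones, and Impact over 85% in Astro_mE6 alone (99.98%).

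Of the clone-variable genes, 310 had another within 200 kb (35.4%), not far above the 28.1% of all genes measured. In 99 of the 238 neighbouring pairs the genes used the same single allele in a clone, in 32 they used opposite alleles in a clone, and in 141 a clone was monoallelic for 1 gene and biallelic for the other. These pairs include overlapping genes, gene families and genes of the runs named below, and no such counts were made for other neighbouring genes. Scd1, the paralogue of Scd2, lies 87586 bases from it, and in Astro_mC3 both used 129 (0.242% and 3.25%). In Astro_G4 Scd1 was at 8.13% (209 reads, 14.9 CPM) beside 45.6% for Scd2. In Astro_C2 Scd1 was at 32.7% (118240 reads) beside 99.7% for Scd2. Mt2, another metallothionein, lies 18470 bases from Mt3 and in Astro_mE6 used Cast (96.0%) where Mt3 used 129. Gria4 and Msantd4, 31003 bases apart, both used Cast in Astro_129 (96.4% and 99.8%), while in Astro_G4 Msantd4 was at 50.5%. Anxa6 and Gm2a, 64514 bases apart, both used 129 in Astro_mE6 (1.74% and 10.7%), and in Astro_G4 only Anxa6 did (0.771% against 47.0%). Pid1 and Dner, a Notch-related membrane protein, shared 129 in Astro_C2 (2.19% and 1.48%). Scd1 with Scd2, Gria4 with Msantd4 and Anxa6 with Gm2a thus shared an allele in 1 clone and parted in another, whereas Mt3 and Mt2 only parted and Pid1 and Dner only shared. Runs of 4 or more consecutive measured genes on 1 allele, a length chosen after seeing the data, occurred outside the unequal windows in 4 places: 4 genes on chromosome 2 in Astro_129, 4 on chromosome 4 in Astro_C2, 6 Hoxc genes on chromosome 15 in Astro_G4 and 12 genes on chromosome 7 in Astro_G4, from Nap1l4 to Tpcn2. They held 19 clone-variable genes.

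Total expression was lower where a gene was monoallelic. For 836 genes with a biallelic clone, CPM in each monoallelic clone was divided by the mean CPM of the biallelic clones of the same gene, after adding 0.5 CPM. Over 1164 such values the median log2 ratio was -0.81, which is 0.57-fold, with quartiles of -1.47 and -0.09. At least 1.5-fold lower were 683 values (58.7%), where 11.3% of 45483 biallelic values were as far below the other biallelic clones of their gene (median -0.03). These biallelic values came from 10362 genes, and expression level was not matched between the 2 sets. The read level of the allele in use, computed the same way, had a median of -0.00 and quartiles of -0.56 and 0.51, against -0.28 and 0.22 in biallelic clones. By clone this median was -0.10 in Astro_129, -0.05 in Astro_C2, -0.10 in Astro_G4, 0.22 in Astro_mC3 and 0.23 in Astro_mE6. In biallelic clones it was 0.02, -0.05, -0.14, -0.00 and 0.02 in the same order, so Astro_129 lay below its biallelic values, Astro_C2 and Astro_G4 close to theirs and the male clones above. The sign of the value over all clones changed with the scaling (0.03 on library totals). For total expression the median log2 ratio by clone was -0.97 in Astro_129, -0.84 in Astro_C2, -0.86 in Astro_G4, -0.47 in Astro_mC3 and -0.51 in Astro_mE6. All 5 medians were below 0, those of the male clones the least. Not every gene was lower: 269 values (23.1%) were at or above the biallelic mean, 144 (12.4%) at least 1.5-fold higher (8.55% in biallelic clones), and 168 (14.4%) at or under 0.25 of it (0.765%).

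**Figure D4:**
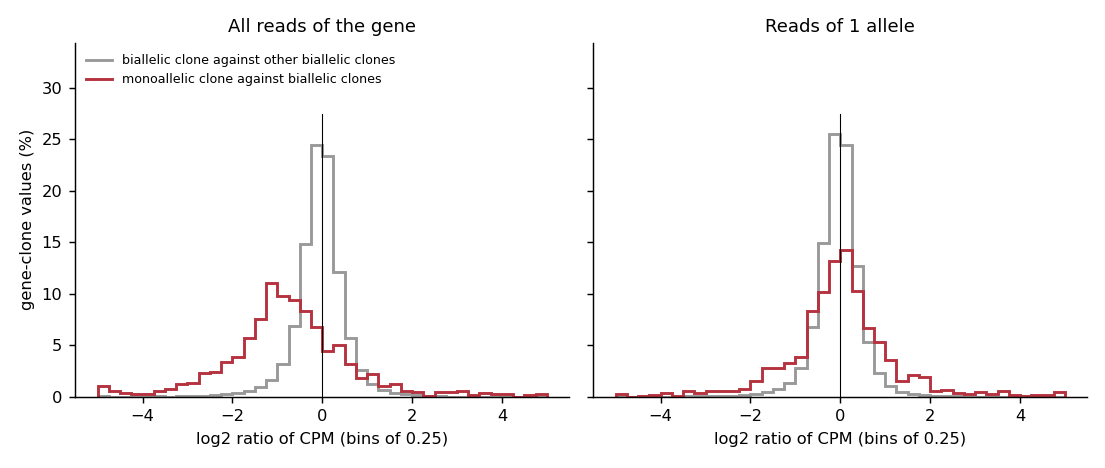
Share of gene-clone values (vertical axis, %) by log2 ratio of CPM (horizontal axis, bins of 0.25, the outermost also holding values beyond the axis) for all reads of a gene (left) and for reads of the allele in use (right); red, monoallelic clones against the biallelic clones of the gene, grey, biallelic clones against the others. The red curve is shifted left for all reads (median -0.81) and centred for a single allele (median -0.00).

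Single genes show the range. Cpped1 stood at 50.9 CPM in Astro_129 and 54.8 in Astro_G4, where it was monoallelic, and at 104, 147 and 150.4 CPM in the biallelic clones (134 ± 25.6 CPM, SD, n = 3), log2 ratios of -1.39 and -1.28. Trim35 was at 54.5 and 46.9 CPM against 86.2, 146 and 143 CPM (125 ± 33.7, SD, n = 3), or -1.19 and -1.41. Scd2 was at 2659 and 2039 CPM against 4221, 4451 and 4811 CPM (4494 ± 297, SD, n = 3), or -0.76 and -1.14. In these 3 genes no monoallelic clone reached the level of a biallelic clone. Insig1 went the other way, with 760 CPM in Astro_C2 and 545, 447, 362 and 591 CPM in the biallelic clones (486 ± 101.9, SD, n = 4), a log2 ratio of 0.64. Cd44 was at 780 CPM in Astro_129 and at 479, 99.5, 149 and 101.8 CPM in the others, a ratio of 1.91. Both were highest in the clone that used 1 allele. Other genes fell far below what the loss of 1 allele takes away: Ncan was at 2011 CPM in Astro_129 and 7093 to 20809 CPM in its biallelic clones (-2.85), Grin3a at 25.6 against 497 to 754 CPM (-4.54), and Gria4 at 6.65 in Astro_129 against 110.5 to 1097 CPM (-6.56). Highest and lowest clone differed at least 10-fold in total expression in 249 clone-variable genes (28.4%) and in 49 opposite genes (47.6%), against 6.4% of all genes measured, a fold chosen after seeing the data.

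Clone-variable genes were expressed at low levels. CPM per kilobase of exon had a median of 2.66, against 7.76 over all genes measured and 2.23 for the opposite genes. In 4 equal bins of genes by this level, from lowest to highest, 14.2%, 7.67%, 4.03% and 3.30% were clone-variable. The median gene had 255 allele-specific reads among clone-variable genes and 836 among all genes measured, and the part of counting noise in these shares was not tested. In all, 99 genes of the highest bin were clone-variable, 16 of them from opposite alleles. Coding genes made up 96.5% of the 876 clone-variable genes and 96.3% of all genes measured.

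The same genes were followed in NPC clones that had no part in choosing them. Values in unequal 20 Mb windows of an NPC clone were left out; besides those of the Ch clones given below, these covered chromosome 18 in NPC_mG2 (medians of 0.0568% to 0.0925%) and chromosome 12 from 80 Mb on in NPC_F5 (73.3% and 73.5%). Of 800 clone-variable genes measured there, 329 (41.1%) were monoallelic in 1 NPC clone or more, against 8.41% of all genes measured, and of 93 opposite genes 67 were (72.0%). The share of clone-variable genes was 22.0% with the Ch clones only (4.52% of all genes) and 33.6% with the poly(A) clones only (6.80%). Among genes measured in 2 NPC clones or more, 263 of 773 (34.0%) varied between NPC clones by the same rule, against 4.98% of all genes, and 52 of 89 opposite genes (58.4%). Clone-variable genes of astrocytes were thus several times as often variable in the other cell type; no test was made of these shares, and the lower expression of the members was not matched. Genes that used only 129 in astrocytes had 179 monoallelic values on 129 and 31 on Cast in NPC clones, and those that used only Cast had 213 on Cast and 52 on 129. Insig1, monoallelic only in Astro_C2, was at 0.325% in NPC_F5 and 44.5% to 51.7% in the other 6 NPC clones. Cpped1 was at 0.0283% in NPC_F5 and 48.1% to 52.6% in the rest. Slc25a13, on Cast in Astro_129 and Astro_G4, was at 98.9% in Ch3 and 0% in NPC_F5. Scd2, Ncan, Gja1 and Ldha were biallelic in all 7 NPC clones, although Ldha still differed slightly among the Ch clones (49.5% to 53.4%; edgeR, adjusted p = 0.00657 after Benjamini-Hochberg, not called under every alternative setting). Some genes were thus monoallelic in clones of either cell type, and others among these clones in astrocytes only.

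**Figure D5:**
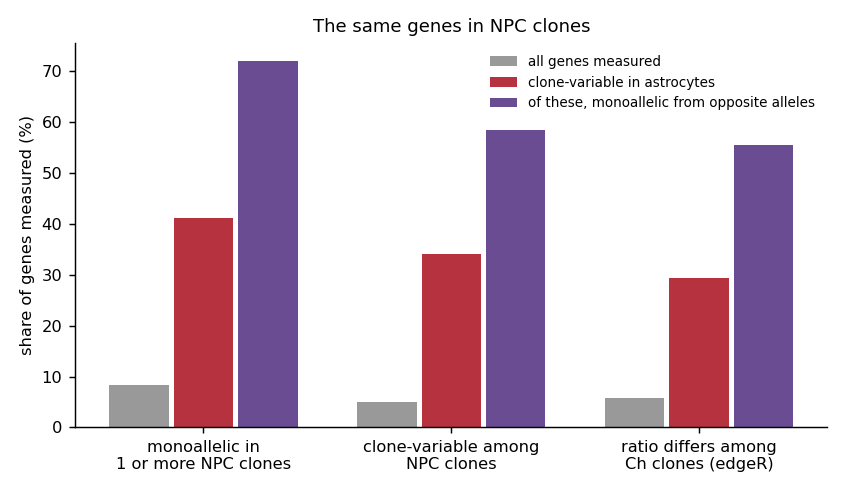
Share of genes (vertical axis, %) that are monoallelic in 1 NPC clone or more, vary between NPC clones, or differ among the Ch clones by edgeR outside unequal windows, for all genes measured (grey), clone-variable genes of astrocytes (red) and opposite genes (violet). Red bars stand at 41.1%, 34.0% and 29.4%, grey bars at 8.41%, 4.98% and 5.86%.

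The 4 Ch clones, with 2 libraries each, allow a test against the spread between libraries. The study speaks of biological replicates; whether the libraries of a Ch clone came from separate cultures is not known here. An edgeR quasi-likelihood F test of Cast against 129 counts with Benjamini-Hochberg adjustment found 962 of 10275 genes to differ among the Ch clones (9.36%), and 186 of the 581 clone-variable genes tested (32.0%); DESeq2's likelihood ratio test called 119 of these 581 (20.5%), against 5.64% of all genes. The other 295 had too few reads. The Ch clones also carry unequal chromosomes, chromosome 1 in all 4 and chromosome 12 in Ch5, Ch7 and Ch8. Outside these windows 157 of 534 clone-variable genes were called (29.4%) and 35 of 63 opposite genes (55.6%), against 5.86% of all genes. Of 250 monoallelic values of clone-variable genes in the first library of a Ch clone, 212 had the same call in the second (84.8%), 3 were biallelic and 0 used the opposite allele; over all genes 1618 of 1779 had the same call (90.9%). Outside the unequal windows, in a count added after seeing these values, the call was the same for 150 of 183 values of clone-variable genes (82.0%) and 492 of 626 of all genes (78.6%). These shares were not tested against each other, and clone-variable genes are part of all genes.

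Several genes named above differed among the Ch clones. Scd1 was at 3.89% in Ch3 and 47.7%, 52.3% and 50.7% in Ch5, Ch7 and Ch8 (edgeR, adjusted p = 7.46e-230). Pttg1, securin, was on Cast in Ch7 and Ch8 (99.7% and 99.9%) and biallelic in Ch3 and Ch5 (47.7% and 50.6%; edgeR, adjusted p = 1.07e-210), as it was on Cast in the female astrocyte clones (98.8% to 100%) and biallelic in the male ones. S100a10, a partner of annexin A2, was at 0.431%, 68.4%, 95.05% and 65.5% in the order Ch3, Ch5, Ch7, Ch8 (edgeR, adjusted p = 9.08e-186). Smoc1 and Zfp386, on chromosome 12, were called as well, but lie in its unequal windows, with 99.8% to 100% in Ch5, Ch7 and Ch8. Peg10 was at 99.9% in Ch3 and 79.5% to 82.3% in the others. Mt3 was at 11.8% in Ch5 and 59.3% to 64.99% in the others (edgeR, adjusted p = 1.44e-127), and Msantd4 at 100% in Ch3 and Ch5 and 51.3% and 47.8% in Ch7 and Ch8 (edgeR, adjusted p = 2.44e-118). Bag3 was at 99.7% in Ch8 and 54.2% to 75.5% in the others (edgeR, adjusted p = 7.3e-40). In each of these genes at least 1 Ch clone lay outside the biallelic range, as astrocyte clones did. The genes were picked by the smallest p or after their Ch values were seen, so this is no independent evidence. For Smoc1 the Ch values outside that range all lay in unequal windows. Genes that missed the threshold included Scd2 (edgeR, adjusted p = 0.996) and Cpped1 (edgeR, adjusted p = 0.657), at 47.6% to 47.9% and 48.1% to 51.4% in the 4 clones.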

How the data were processed

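The authors aligned reads to the mouse genome (GRCm38) with TopHat2 2.1.0 and Bowtie2, assigned them to the Cast or 129 allele and counted them per gene with featureCounts 1.5.1; the deposited counts hold Cast, 129 and all reads. The authors' own ratio column, a deposited fraction, was not used. From the counts, percent Cast and TMM-scaled CPM were computed with R 4.3.3, edgeR 4.0.16, limma 3.58.1 and DESeq2 1.42.0, and with Python 3.11.15, numpy 2.4.6, pandas 2.3.3 and matplotlib 3.10.9. Gene positions and promoters are from RefSeq, GRCm38.p6: 25903 of 50600 genes matched, 24190 of them autosomal, and of 13718 genes with enough reads in 2 clones 1261 had no position and were left out. For ratios, reads from both libraries of each Ch clone were added up. The edgeR design held library, allele and allele by clone, for genes with 20 reads in every Ch clone.

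Members and lists were chosen with earlier results of these data known. Named genes are the study's 13 genes, the 14 best covered of each class (without Gm numbers, Rik names, accession names and pseudogenes), up to 4 of each list, genes at the limits, 5 neighbouring pairs and the 6 members with the smallest p in the Ch test; not all of them are described, and a withheld item is not reported here. Other Ch results and the NPC values of named genes were picked after their values were seen. The same holds for the pair of promoters shown, the meaning of CpG-rich and the split of the Ch test by unequal windows.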

Additional observations from a re-analysis of the deposited data

Results flagged for a closer look

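In each of the following values, 1 of the 5 astrocyte clones lay far from the other 4 relative to the whole range. Chance marks about 1 in 20 groups of this size, and genes picked for a clone that differs are marked by their choice. Over all genes, the median percent Cast of Astro_G4 was 49.89%, above the other clones. The summed level of mesenchymal markers was 263.2 CPM in Astro_C2.

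Percent Cast stood apart in Astro_129 for Cd44 (1.516%), Scrn1 (2.802%), Tgfbr2 (0.9843%), Zfp945 (0.06601%), Grin3a (99.49%), Msantd4 (99.79%) and Zfp386 (99.47%). In Astro_C2 it stood apart for Insig1 (0.2402%), Gja1 (0.2618%), Zfp507 (0.06645%) and Adamts1 (95.05%), in Astro_G4 for Eya3 (9.484%), Nap1l4 (99.41%), Tpcn2 (100%) and Cdk1 (62.44%), and in Astro_mE6 for Hoxd8 (1.337%) and Col1a1 (35.85%).

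Total expression was apart in Astro_C2 for Slc38a1 (753.8 CPM), Peg10 (3667 CPM), Slc25a13 (44.8 CPM), Tgfbr2 (137 CPM), Col1a1 (210.1 CPM) and Tor4a (7.115 CPM). The same held in Astro_mE6 for Aldoc (2380 CPM) and Acyp2 (24.36 CPM), in Astro_129 for Gfap (1911 CPM), Tubb3 (15.9 CPM) and Eya1 (110.4 CPM), in Astro_G4 for Peg3 (722.2 CPM) and in Astro_mC3 for Tiam2 (16.74 CPM).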

How the results depend on the processing

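Without each astrocyte clone in turn, opposite genes numbered 71 to 88 (116 in all 5 clones) and genes monoallelic in some and biallelic in other clones 685 to 982 (1120). The median log2 ratio of total expression ran from -0.86 to -0.75 and that of the allele in use from -0.02 to 0.03. Other read minimums, limits and windows moved each count by less than 1.5 times: 85 to 141 opposite genes and 819 to 1366 of the larger class, including windows of 5 Mb and runs left out, both chosen after seeing the data. Total expression lay between -1.01 and -0.75 under the other planned settings, and at -1.16 over the 601 values with at least 10 CPM in the biallelic clones, a level chosen after seeing the data. The share of clone-variable genes monoallelic in an NPC clone was 33.6% with the poly(A) clones only, 22.0% with the Ch clones only and 37.0% with at least 50 reads, against 6.80%, 4.52% and 6.76% of all genes; the first pair of settings holds fewer clones.

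For the Ch clones, DESeq2 called 119 of 581 clone-variable genes (5.64% of all genes), and the cause of the difference from 186 was not tested. Leaving out each library gave 154 to 182, which is 27.7% to 33.5% of 520 to 557 tested, against 7.81% to 10.7% of all genes. A replicate block called 185, 184 of them shared. Same-numbered libraries did not deviate together in allelic ratio (r from -0.014 to 0.032). A batch shared in total expression need not show in this measure, so whether the numbers pair the libraries stays unknown. A minimum of 10 or 50 reads gave 191 of 640 and 153 of 468, against 9.18% and 9.12% of all genes, and TMM factors 186.

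In a clone or more, 289 clone-variable genes had too few reads (33.0%, against 12.7% of all genes measured); low depth and a gene not expressed there were not separated. Astrocyte clones have 1 library each, so differences between cultures of a clone cannot be told from differences between clones.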
